A study of Mus musculus with 9 samples.

Results

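The mouse genome holds 39 Hox genes in 4 clusters, Hoxa to Hoxd, and all 39 were listed in each of the 9 single-cell libraries of this study, among 30406 gene identifiers that the libraries shared. The members were chosen by symbol alone (Hox, a cluster letter and a number), and that rule uses no measured value. Hox genes encode homeodomain transcription factors. Within a cluster the genes lie in the order in which they are used along the body axis, from paralog group 1 near the hindbrain to group 13 at the tail end, the most distal parts of the limbs and the genital tubercle. Cells taken from an embryo, fibroblasts in particular, are known to keep part of this positional pattern in culture.

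Mouse embryonic fibroblasts (MEFs) were transduced with lentivirus for a set of neuronal transcription factors, which turn fibroblasts into induced neurons (iNs), and were profiled by 10x 3′ single-cell RNA sequencing on days 4, 7 and 10. There was 1 library for each day from wild-type (WT), Per1-/- (allele Per1tm1Drw) and Per2-/- (allele Per2tm1Drw) cells of the B6.129 background, so no genotype had a repeated library on any day, and the days were the only repeats of a genotype. Per1 and Per2 encode repressors of the circadian clock. The MEFs came from embryos at E13.5 with the head and heart removed, the cells of 4 embryos were mixed in a dish, the sex of the embryos was not determined, and every library had received these factors, so that trunk, limb and tail tissue were mixed in unknown proportions and no library shows the MEFs before transduction. P-values below therefore measure only the spread between these libraries.

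Of 95603 barcodes, 81989 passed the study's limits on UMI (unique molecular identifier, a count of captured transcripts) and mitochondrial share. After removal of 8442 predicted doublets, 73547 cells were kept, with a median of 14181 to 27215 UMI per cell across the libraries. Over all deposited barcodes, before these limits, a library held 126625215 to 353198559 UMI. The targeted genes did not fall where their labels would place them: Per1 was at 9.11 to 10.3 CPM (a gene's UMI scaled to the same total in every sum) in the libraries labelled Per1-/- against 6.31 to 7.85 CPM in WT, and Per2 at 4.99 to 6.40 CPM in those labelled Per2-/- against 2.58 to 3.07 CPM in WT. The allele names do not say whether the 3′ ends read here lie outside the altered part of these genes, so these levels check the labels only in part and say nothing of the proteins, which the study examined by western blotting and these data do not measure, and Per1-/- and Per2-/- below mean the libraries labelled so. Xist, expressed from the inactive X of female cells, was at 0.0598 and 0.0679 CPM in the day 10 and day 7 Per1-/- libraries and at 345 to 991 CPM in the other 7, and 4 Y-linked genes were at 209 to 216 against 50.8 to 117 CPM. WT day 10 was the library with the lowest share of barcodes passing, 55.4%. Pairs of libraries shared 11 to 38 cell barcodes, at most 0.424% of the smaller library.

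Cells were clustered without the Hox genes and without the other gene lists used below, so that the clusters were not built from the genes described, and were named only from marker genes. The classes used here were 33417 fibroblast-like cells (1740 to 5625 per library), 7412 neuron-like cells (242 to 1515), 2572 Schwann-like cells (111 to 1006), 2503 skeletal muscle-like cells (130 to 394) and, as a class that should express little Hox RNA, 6574 macrophage-like cells (155 to 1408). The summed level of 15 fibroblast markers ranged from 21217.7 to 43110.8 CPM in fibroblast-like cells and from 632 to 1820 CPM in neuron-like cells, whereas 16 neuron markers ranged from 90.5 to 239 and from 4800 to 9792 CPM. Fibroblast markers were still at 6628 to 12490 CPM in Schwann-like and 5680 to 8846 CPM in skeletal muscle-like cells, above the range in neuron-like cells, and the part of this RNA in the Hox levels of those 2 classes was not tested.

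Levels are given as CPM of the UMI summed over the cells of a class in a library, and "pooled" means over all 9 libraries. Because a 3′ UMI stands for 1 captured transcript, levels were not divided by gene length, although capture may differ between genes. A lower sum can come from fewer expressing cells or from less RNA per cell, and the sums cannot tell these apart. The day 4 and day 7 libraries were counted with another gene table than the day 10 libraries, and 7 members (Hoxa2, Hoxa3, Hoxa4, Hoxa5, Hoxa6, Hoxd3 and Hoxd4) overlapped genes or had a second identifier in only 1 of the tables, so their values cannot be compared between day 10 and the earlier days. The day 10 libraries were also counted with another software version. For every gene, day 10 therefore cannot be told apart from its counting. Transcript ends were not compared between the gene tables.

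In the mm10 assembly the Hoxa cluster, with 11 genes, lay on chromosome 6, the Hoxb cluster, with 10 genes, spanned chr11:96194316-96368256, the Hoxc cluster, with 9 genes, chr15:102921103-103036852, and the Hoxd cluster, with 9 genes, chr2:74668310-74765142. All 39 homeoboxes, the 180 bases that encode the DNA-binding homeodomain, lay within the last exon of the annotated transcript. The homeoboxes of 6 members are shown because they recur in the comparisons and run from paralog group 2 to group 13. Capitals mark the 18 bases that encode the most conserved stretch of the recognition helix, which contacts DNA.

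Hoxa2 (chr6:52163411-52163590, minus strand): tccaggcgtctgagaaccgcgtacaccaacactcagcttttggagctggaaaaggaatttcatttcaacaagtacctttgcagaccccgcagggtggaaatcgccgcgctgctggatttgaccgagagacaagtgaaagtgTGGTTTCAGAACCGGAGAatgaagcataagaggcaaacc
Hoxa5 (chr6:52202632-52202811, minus strand): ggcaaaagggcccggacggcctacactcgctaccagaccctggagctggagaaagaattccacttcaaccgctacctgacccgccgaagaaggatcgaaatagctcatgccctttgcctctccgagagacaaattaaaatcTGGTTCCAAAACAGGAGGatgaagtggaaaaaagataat
Hoxc8 (chr15:102992571-102992750, plus strand): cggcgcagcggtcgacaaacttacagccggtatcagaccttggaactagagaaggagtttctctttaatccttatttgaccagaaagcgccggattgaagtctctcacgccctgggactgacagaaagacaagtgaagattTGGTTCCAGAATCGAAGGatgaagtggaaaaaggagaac
Hoxb9 (chr11:96274659-96274838, plus strand): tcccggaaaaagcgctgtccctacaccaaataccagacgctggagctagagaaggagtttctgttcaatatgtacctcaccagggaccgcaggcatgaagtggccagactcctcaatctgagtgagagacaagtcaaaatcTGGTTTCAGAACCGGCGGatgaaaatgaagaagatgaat
Hoxa13 (chr6:52258928-52259107, minus strand): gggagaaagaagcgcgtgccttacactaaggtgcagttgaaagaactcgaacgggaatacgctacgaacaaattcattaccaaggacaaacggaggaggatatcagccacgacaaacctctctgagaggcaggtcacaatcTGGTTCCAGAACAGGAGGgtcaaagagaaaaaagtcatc
Hoxd13 (chr2:74669930-74670109, plus strand): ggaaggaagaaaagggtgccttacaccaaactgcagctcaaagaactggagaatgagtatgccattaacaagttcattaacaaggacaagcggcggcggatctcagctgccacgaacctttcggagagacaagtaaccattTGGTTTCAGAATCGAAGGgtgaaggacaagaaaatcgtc

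Hoxa13 and Hoxd13, from 2 clusters but the same paralog group, shared 73.9% of their 180 bases, whereas Hoxd13 and its neighbour Hoxd12 shared 56.1% and Hoxd13 and Hoxa2 54.4%. Over all pairs, homeoboxes of the same group shared a median of 80.6% of bases (67.2% to 93.9%, 42 pairs), those of neighbouring genes in a cluster 68.3% (56.1% to 88.9%, 35 pairs) and all other pairs 60.3% (46.1% to 86.1%, 664 pairs). These identities are a description of the reference sequence and do not depend on the libraries.

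Fibroblast-like cells carried Hox RNA from all 4 clusters and all 13 paralog groups, with the larger part from the middle of the clusters. Paralog groups 5 to 9 gave 52.2% of Hox UMI, groups 10 to 13 gave 34.8% and groups 1 to 4 gave 12.98%. The members counted differently on day 10 enter these pooled values. The 39 genes together reached 502 CPM pooled, and the sum varied over the libraries from 353 through a median of 519 to 647 CPM. The clusters shared this almost evenly, with 25.6% of Hox UMI from Hoxa, 21.1% from Hoxb, 26.0% from Hoxc and 27.3% from Hoxd. Paralog groups 8, 9 and 13 were the highest, at 91.7, 79.8 and 70.1 CPM pooled, and groups 1 and 12 the lowest, at 1.83 and 8.64 CPM. The plot of levels by cell class sets the single genes beside those of the other classes.

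**Figure D1:**
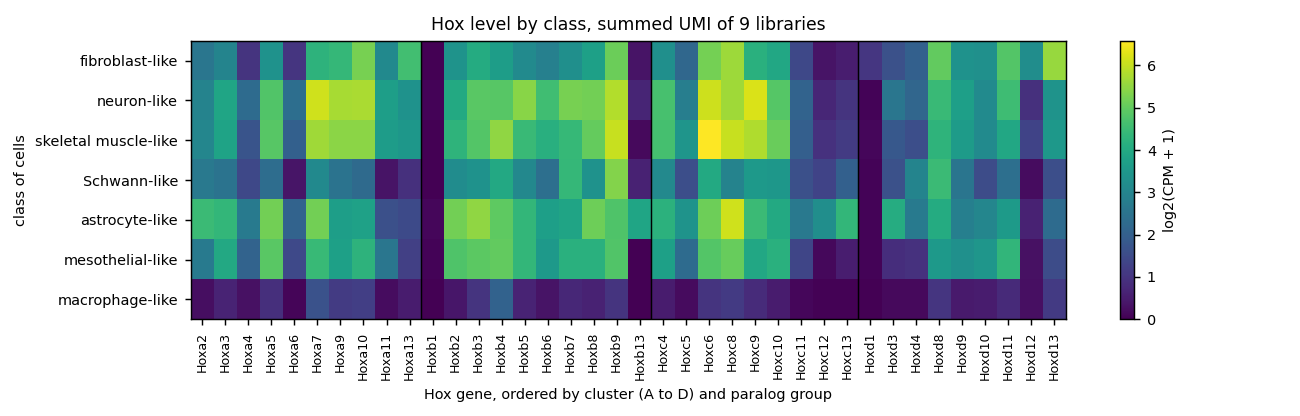
Level of 38 Hox genes (columns, ordered by cluster from Hoxa to Hoxd and by paralog group, with lines between the clusters) in each named cell class (rows), summed over the 9 libraries, in colour as log2 of CPM plus 1. The fibroblast-like row is brightest at Hoxc8 and Hoxd13 (48.5 and 46.5 CPM), the macrophage-like row is dark throughout, at 23.1 CPM for all 39 genes together.

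The 10 highest members in fibroblast-like cells were Hoxc8 (48.5 CPM pooled), Hoxd13 (46.5), Hoxa10 (36.3), Hoxc6 (36.0), Hoxb9 (33.5), Hoxd8 (30.9), Hoxd11 (27.3), Hoxa13 (22.9), Hoxa9 (19.9) and Hoxa7 (18.1), which held 63.7% of the Hox UMI. Hoxc8, Hoxc6 and Hoxb9 are known for patterning the thorax, and Hoxa13, Hoxd13 and Hoxd11 for patterning the limb and the urogenital region. Besides these, the highest member of its group was Hoxd1 (1.06 CPM), Hoxb2 (9.42), Hoxb3 (15.7), Hoxb4 (11.6), Hoxa5 (9.15) and Hoxd12 (8.36). No member exceeded 100 CPM, 15 lay between 10 and 100 CPM, 18 between 1 and 10 CPM and 6 under 1 CPM. Among those 6 were Hoxa4 (0.98 CPM), Hoxb1 (0.014, from 12 UMI), Hoxb13 (0.26), Hoxc12 (0.27) and Hoxc13 (0.43).

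Macrophage-like cells served as a low reference for Hox RNA. All 39 Hox genes together were at 23.1 CPM there, 4.60% of the level in fibroblast-like cells (3.29% to 8.35% per library), while the 15 fibroblast markers stood at 1.73% to 2.52% of theirs pooled and at 0.700% to 5.78% in single libraries, which overlaps the Hox range. With doublets kept, the median Hox level of macrophage-like cells over the libraries was 53.9 instead of 22.9 CPM. Of the 39 members, 35 were higher in fibroblast-like than in macrophage-like cells of the same library in all 9 libraries. Taken singly, 32 of the 39 members stood at a higher share of their fibroblast-like level than any of the 15 markers did. The macrophage-like levels were highest for Hoxb4, at 3.18 CPM or 27.5% of its fibroblast-like level, and Hoxa7, at 2.16 CPM or 11.95%. How much of this RNA was free RNA from other cells was not tested.

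Hoxd13, Hoxa13 and Hoxd12 differed between the libraries by more than an order of magnitude. Hoxd13, the last gene of its cluster, was at 56.8, 51.1 and 48.4 CPM in WT fibroblast-like cells on days 4, 7 and 10, at 58.7, 2.60 and 2.48 CPM in those labelled Per1-/-, and at 50.4, 71.5 and 19.7 CPM in those labelled Per2-/-. Hoxa13 was at 35.0, 27.1 and 22.8 CPM in WT, 27.0, 1.59 and 1.76 CPM in Per1-/- and 24.7, 31.6 and 10.3 CPM in Per2-/- cells. The day 10 Per2-/- values depended on how the class was formed: with finer clusters Hoxd13 was at 52.5 and Hoxa13 at 30.7 CPM there, and without the limit on markers of other classes at 82.8 and 32.1 CPM. The day 7 and day 10 libraries labelled Per1-/- were the lowest of all 9 for both genes, and the day 4 library with the same label lay within the range of the WT libraries for Hoxa13 and above it for Hoxd13. The ratio of Per1-/- to WT for Hoxd13 was 1.03 on day 4, 0.0510 on day 7 and 0.0513 on day 10.

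The neighbours of Hoxd13 showed the same split, narrower in Hoxd11 and Hoxd10 than in Hoxd12. Hoxd12 was at 0.381 and 0.257 CPM in the Per1-/- libraries of days 7 and 10 and at 2.79 to 13.2 CPM in the other 7. Hoxd11 was at 5.75 and 5.11 against 17.8 to 39.2 CPM, and Hoxd10 at 4.29 and 3.05 against 6.04 to 11.03 CPM. None of these ranges overlapped. In all, 6 of the 39 members were lower in both of these Per1-/- libraries than in each of the other 7, the 4 just named with Hoxa11 and Hoxa13, where 10.0% of all genes tested were, and 5 were higher in both, where 7.34% of all genes were. Those 5 were Hoxa7, Hoxd9 and 3 members counted differently on day 10, Hoxa3, Hoxa5 and Hoxa6. The 2 libraries were set apart here after their Hoxd13 values were seen, and these counts are a description. The thoracic genes Hoxc8 and Hoxb9 did not show this split. Hoxc8 stood at 69.0 and 59.1 CPM in the same 2 libraries and between 23.4 and 81.4 CPM in the other 7, and Hoxb9 at 27.3 and 17.9 against 23.9 to 51.4 CPM, lowest in the day 10 Per1-/- library. The same 2 libraries differed from the rest in the sex-linked genes given above, and the part of the embryos' sex or of the tissue mixture in these values was not tested.

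**Figure D2:**
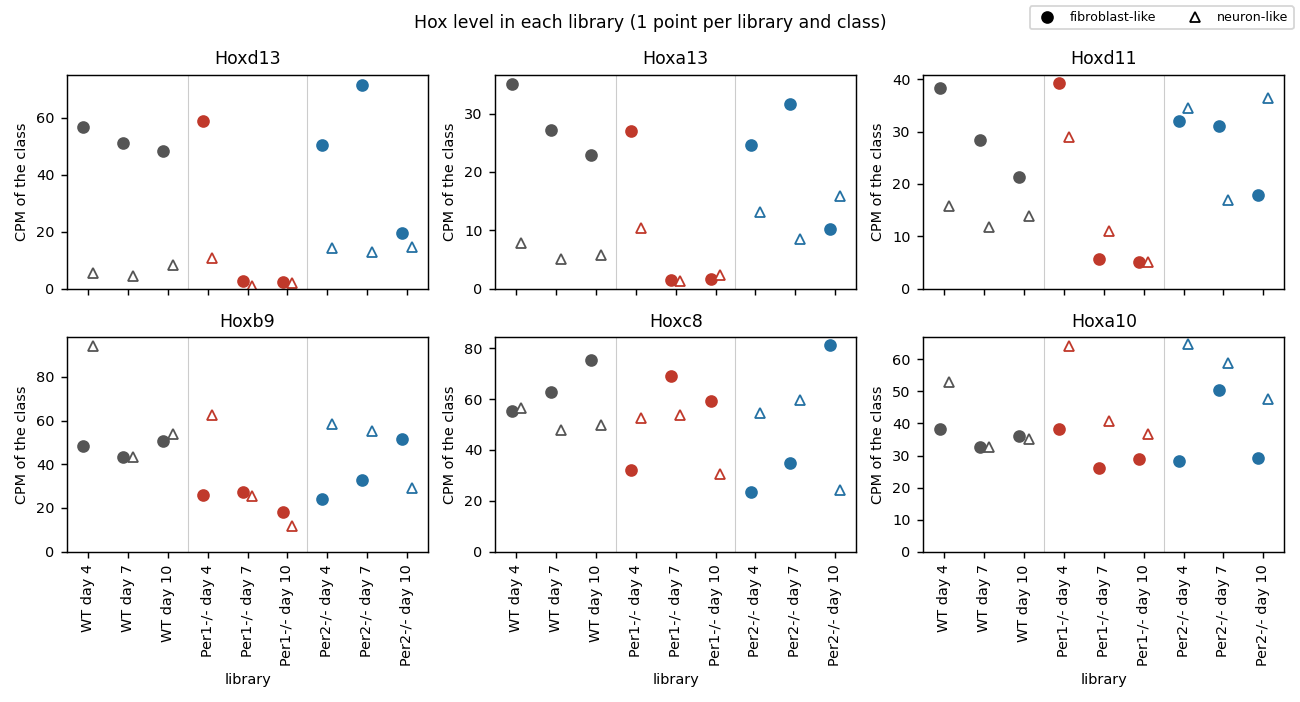
Level of 6 Hox genes (1 panel each, vertical axis in CPM from 0) in each library (horizontal axis; WT grey, Per1-/- red, Per2-/- blue) in fibroblast-like (filled circles) and neuron-like cells (open triangles), 1 point per library and class and so without error bars. The Per1-/- points of days 7 and 10 lie at 2.60 and 2.48 CPM for Hoxd13 in fibroblast-like cells, under every other library, whereas Hoxc8 stood at 69.0 and 59.1 CPM there.

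Some genes that mark limb and body position set the same libraries apart, in both directions. Of 31 such genes, 10 were lower in the Per1-/- libraries of days 7 and 10 than in each of the other 7, 4 were higher, and 17 overlapped, beside 10.0% lower and 7.34% higher of all genes. The 4 higher were En1, at 72.2 and 74.7 against 21.5 to 69.4 CPM, Tbx18, at 17.8 and 23.9 against 8.61 to 17.2 CPM, Zic1 and Foxf1. Tbx4, a regulator of hindlimb outgrowth, was at 22.4, 22.7 and 18.8 CPM in WT fibroblast-like cells on days 4, 7 and 10, at 16.5, 2.40 and 2.54 CPM in Per1-/- and at 19.2, 22.1 and 7.29 CPM in Per2-/- cells. Pitx1, which acts upstream of it in the hindlimb, was at 17.4, 18.9 and 16.2 CPM in WT, 16.9, 6.89 and 5.96 CPM in Per1-/- and 16.5, 22.0 and 8.13 CPM in Per2-/- cells. Tbx5, its forelimb counterpart, varied less, from 4.18 CPM in the day 10 Per1-/- library to 11.3 CPM in the day 4 Per1-/- library, with WT at 7.53, 7.17 and 6.56 CPM, Per1-/- on day 7 at 5.53 CPM and Per2-/- at 8.26, 8.92 and 8.84 CPM. The lower Tbx4 and Pitx1 values stood in the same libraries as the lower Hoxd13 values, and Tbx5, also lowest in those 2, differed by less than 3-fold over all 9.

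In the fit with genotype and day, edgeR's quasi-likelihood test with Benjamini-Hochberg adjustment called none of the 38 tested members in Per1-/- against WT fibroblast-like cells, where the background over all genes was also 0%, and 6 had an unadjusted p under 0.05, as had 9.47% of all genes. DESeq2 called 2 members there, Hoxb9 and Hoxc12, and 2.03% of all genes. Without the day 4 library labelled Per1-/-, edgeR called 6 members between Per1-/- and WT: Hoxd13 at -4.19 ± 0.42 (log2 fold ± SE), Hoxd12 at -4.12 ± 0.34, Hoxd11 at -2.14 ± 0.16, Hoxd10 at -1.31 ± 0.17 and Hoxa13 at -3.80 ± 0.37 were lower and Hoxa3 at 1.01 ± 0.17 was higher, with 342, or 2.05%, called of all genes. In that fit 2 libraries stand for Per1-/- and 3 for WT, and the genotype cannot be told apart in it from anything else that those 2 libraries share. It left out the Per1-/- library without the low Hoxd13 level, and that difference had been seen beforehand. Its calls are therefore a description of these libraries and no test of the genotype.

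Per2-/- against WT gave no called member with edgeR, again with 0% of all genes, with 6 members and 6.85% of all genes at an unadjusted p under 0.05, and DESeq2 called 1, Hoxc12, and 0.621% of all genes. Per1-/- against Per2-/- also gave none and 0% of all genes, with 7 members and 10.7% of all genes at an unadjusted p under 0.05 and no member but 1.41% of all genes by DESeq2, but 6 members without the day 4 Per1-/- library, when 534 of 16682 genes were called in all. That last count is a description too, as it leaves out the same library. The smallest p-values belonged to Hoxc12 (log2 fold 3.14 ± 0.88, adjusted p = 0.370), Hoxb9 (-0.93 ± 0.28, 0.377) and Hoxd10 (-0.82 ± 0.30, 0.458) in Per1-/- against WT. They belonged to Hoxc12 (3.63 ± 0.86, 0.492), Hoxb13 (2.52 ± 0.66, 0.587) and Hoxd3 (-1.16 ± 0.36, 0.651) in Per2-/- against WT, and to Hoxa3 (0.78 ± 0.27, 0.430), Hoxa6 (0.80 ± 0.28, 0.431) and Hoxd9 (0.73 ± 0.26, 0.431) in Per1-/- against Per2-/-. Hoxc12 and Hoxb13 are among the members under 1 CPM, and none of these 9 differences passed the threshold of 0.05. All 3 comparisons share libraries, and the days are the only repeats of a genotype, so no direction by genotype was drawn from them. The RNA levels of the targeted genes, given above, check the labels only in part and say nothing of the proteins.

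The fibroblast-like cells fell into 8 clusters with different Hox levels, which are described here without a test. Clusters 2 (5624 cells, led by Fxyd7, Tnn and Msx1) and 3 (5475 cells, led by Slc14a1, Grem1 and Tnn) were the only 2 of the 8 with Hoxd13 over 100 CPM, at 112 and 133 CPM. Hoxa13 reached 51.3 and 69.9 CPM there, Hoxd12 18.3 and 25.6 CPM and Hoxd11 58.6 and 73.9 CPM, whereas all Hoxb genes together were at 6.86 and 6.91 CPM and all Hoxc genes at 6.93 and 2.84 CPM. Hoxd13 lay above its median over the fibroblast-like clusters in 8 of 8 libraries with enough cells of cluster 2 and in 9 of 9 for cluster 3. Of the 31 position genes, 10 were higher in both clusters than in each of the other 6. Among them were Tbx4 (40.5 and 44.8 CPM), Pitx1 (37.7 and 30.8 CPM), Lhx2 (26.7 and 36.8 CPM) and Msx1 (121 and 153 CPM). The forelimb gene Tbx5 was among them too, by less (10.7 and 13.6 against 0.415 to 10.3 CPM). Another 15 were lower in both, among them En1 (9.38 and 5.48 CPM against 24.7 to 86.2 CPM). Of all genes, 5.26% were higher in both clusters and 9.26% lower.

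In the other clusters the thoracic genes Hoxc6 and Hoxc8 stood higher than in clusters 2 and 3. Cluster 0 (7589 cells, with C1qtnf3 and Lgr5 among its leading genes) had Hoxb9 at 71.5, Hoxc8 at 93.5, Hoxc10 at 28.8 and Hoxd1 at 2.21 CPM, and Hoxb9 and Hoxd1 were above the median of the clusters in 9 of 9 libraries and Hoxc10 in 8. Cluster 14 (1747 cells, led by Syt13 and Wnt4) had the highest Hox sum of the 8, 838 CPM, with Hoxc6 at 104, Hoxb8 at 43.3 and Hoxc10 at 40.9 CPM, each above the median in 9 of 9 libraries. Clusters 1 (6246 cells, led by Steap4, Ebf2 and Clec3b) and 8 (2740 cells, led by Otor, Shisa3 and Npy1r) had the highest levels of 2 more anterior genes, with Hoxa5 at 21.8 and 21.4 CPM and Hoxa3 at 15.8 and 17.6 CPM, although their thoracic genes were higher still, with Hoxc8 at 69.4 and 68.9 CPM. The other of the 3 highest genes relative to the rest was Hoxd4 at 12.2 CPM in cluster 1 and Hoxd13 at 19.2 CPM in cluster 8. Hoxa3, Hoxa5 and Hoxd4 were all counted differently on day 10, and 58.0% of the cells of cluster 1 came from the day 10 Per1-/- library. Compared within each library, Hoxa5 was above the median of the clusters in 9 of 9 libraries in both clusters and Hoxa3 in 8 of 9 in cluster 1 and 9 of 9 in cluster 8, but Hoxd4 in only 4 of 9 in cluster 1 and Hoxd13 in 6 of 9 in cluster 8.

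Cluster 11 (2292 cells, led by Alx1, Cyp26b1 and Pax3) had the lowest Hox sum of the 8, 79.7 CPM, and its highest genes relative to the others included Hoxa2 at 23.2 CPM and Hoxb13 at 1.47 CPM. Hoxa2, which patterns the second pharyngeal arch and the hindbrain, was above the median of the clusters in 6 of 6 libraries there, beside Barx1 at 42.1 and Dlx5 at 25.5 CPM, whereas Hoxb13 was above it in only 2 of 6. The day 4 Per2-/- library gave 62.1% of these cells and had the highest Hoxa2 level in fibroblast-like cells of days 4 and 7, 14.4 CPM against 2.28 to 5.16 CPM in the other 5 libraries of those days. Cluster 15 (1704 cells), led by the mitotic genes Top2a and Kif11, was mixed, with Hoxd13 at 44.8, Hoxa13 at 19.4 and Hoxd12 at 7.12 CPM, beside a Hoxb sum of 118 CPM. Hoxd13 and Hoxa13 were above the median in 8 of 9 libraries there and Hoxd12 in 6.

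**Figure D3:**
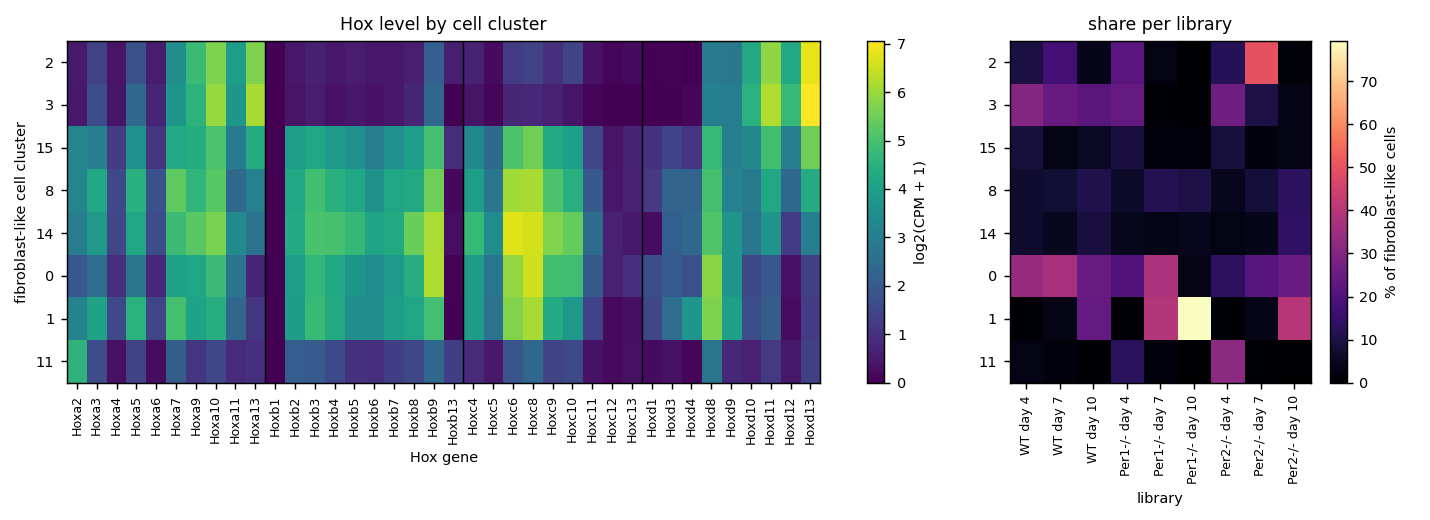
Left, level of 38 Hox genes (columns, in cluster order) in each of the 8 fibroblast-like cell clusters (rows, by number), as log2 of CPM plus 1 in colour; right, the percentage of each library's fibroblast-like cells (columns) that each cluster held. Clusters 2 and 3 show Hoxd13 at 112 and 133 CPM and little Hoxb or Hoxc RNA, cluster 0 shows Hoxc8 at 93.5 CPM, and cluster 11 is low at most genes, with Hoxa2 at 23.2 CPM.

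Clusters 2 and 3 were picked here for their Hoxd13 level, so that their share of a library's fibroblast-like cells largely follows its Hoxd13 level by construction, and it is given as a description. It was 39.7%, 42.1% and 25.9% in WT on days 4, 7 and 10, 45.6%, 3.73% and 0.680% in Per1-/- and 37.8%, 59.8% and 5.07% in Per2-/- cells. Within these 2 clusters Hoxd13 stayed between 62.0 CPM, from the 91 such cells of the day 7 Per1-/- library, and 162 CPM in WT on day 10, and the 31 such cells of the day 10 Per1-/- library had 132 CPM. Outside them it was 0.656 and 1.61 CPM in the Per1-/- libraries of days 7 and 10, again the lowest, and 4.88 to 15.03 CPM in the other 7. When cells were clustered more finely, the share in clusters of high Hoxd13 was 2.41% and 2.95% in the Per1-/- libraries of days 7 and 10 but 44.5% in the day 10 Per2-/- library, where the Hoxd13 level of fibroblast-like cells then was 52.5 CPM instead of 19.7. The day 10 Per2-/- values therefore depended on which clusters were named fibroblast-like. The Hoxd13 level of the Per1-/- libraries of days 7 and 10 moved too, to 2.65 and 4.09 CPM with finer clusters and to 3.47 and 5.34 CPM without the limit on markers of other classes, and stayed under the other 7, which were at 46.2 CPM or more and 44.7 CPM or more.

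Single cells showed the same separation. To compare cells of different depth, each cell was thinned to 5000 UMI, which left 33222 fibroblast-like cells. Of the 7070 with a UMI of Hoxa13 or Hoxd13, 3.55% also had a Hoxb UMI and 2.38% a Hoxc UMI, against 35.8% and 38.7% of the 26152 cells without. Hoxb13, Hoxc12 and Hoxc13 were left out of these Hoxb and Hoxc counts. At 10000 UMI per cell these shares were 6.84% and 4.19% against 53.2% and 55.1%. Cells of 1 library are not replicates, and this is a description over cells pooled from all libraries.

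Across days, fibroblast-like cells gave no called member on day 7 against day 4, where 2.80% of all genes were called. In that comparison 8 members and 20.9% of all genes had an unadjusted p under 0.05, DESeq2 called 6 members and 9.97% of all genes, and edgeR called 6 without the day 4 WT library, when 3.01% of all genes were called. The smallest p-values were those of Hoxb13 (log2 fold -2.32 ± 0.57, adjusted p = 0.0774), Hoxa7 (0.71 ± 0.22, 0.129) and Hoxc5 (0.77 ± 0.25, 0.135).

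On day 10 against day 4 edgeR called 13 members higher, where 10.9% of all genes were higher, and 1 lower, where 8.09% were lower. These 14 calls fell to 6 with finer clusters, where 19.9% of all genes were called, and to 5 without the limit on markers of other classes, where 18.7% were. In the day 10 Per2-/- library that limit kept out cells of high Hoxd13, and without it Hoxc8 was at 29.7 instead of 81.4 CPM and Hoxb9 at 19.4 instead of 51.4 CPM there. The members that rose lay in paralog groups 3 to 9: Hoxb6, at 6.86, 4.06 and 2.85 CPM in the 3 day 4 libraries (WT, Per1-/-, Per2-/-) and 10.9, 8.60 and 12.6 CPM in those of day 10, rose by 1.27 ± 0.29 (adjusted p = 0.0242), and Hoxc6, at 38.4, 23.5 and 15.2 against 65.4, 48.4 and 52.9 CPM, by 1.17 ± 0.26 (0.0227). The ranges of both genes did not overlap between the days. Hoxb3 rose by 1.15 ± 0.27, Hoxa7 by 1.07 ± 0.23 and Hoxc4 by 1.02 ± 0.23 on the log2 scale. Hoxd4 (7.29 ± 0.45), Hoxd3 (2.15 ± 0.36), Hoxa3 (1.47 ± 0.27) and Hoxa5 (1.44 ± 0.33) are among the members counted differently on day 10. Of the 31 tested members outside that list, 9 were higher and 1 lower, and their day 10 libraries too had another gene table and software version. The 1 that fell was Hoxb13 at -4.82 ± 0.82, which had 0.251, 0.344 and 1.01 CPM on day 4 and at most 0.034 CPM on day 10. The makeup of the class changed over the same days. Clusters 2 and 3, low in Hoxb and Hoxc RNA, held 39.7%, 45.6% and 37.8% of it on day 4 (WT, Per1-/-, Per2-/-). On day 10 they held 25.9%, 0.680% and 5.07%. With finer clusters, those of high Hoxd13 held 32.5%, 37.7% and 35.5% on day 4 and 36.0%, 2.95% and 44.5% on day 10. The part of this makeup in the changes with time was not tested. The call count rested on single libraries: it was 14 with all of them, 22 without the day 4 WT library (3191 and 2585 of all genes called), 6 and 5 without the day 4 Per1-/- and Per2-/- libraries (1536 and 1830 of all genes), and 4 and 5 without those of day 10 (1031 and 2049 of all genes).

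Neuron-like cells had a larger share of their UMI from Hox genes than fibroblast-like cells, with more of it from the middle of the clusters and less from their posterior end. Paralog groups 5 to 9 gave 67.3% of Hox UMI against 52.2% in fibroblast-like cells, groups 10 to 13 gave 17.4% against 34.8%, and groups 1 to 4 gave 15.3% against 12.98%. The 39 genes reached 847 CPM pooled, from 636 through a median of 827 to 1027 CPM over the libraries, above the fibroblast-like sum in 9 of 9 libraries on this plain scale. The median ratio was 1.63, but on the library sizes scaled by TMM that edgeR's folds use, which lowered neuron-like against fibroblast-like values by a median of 0.47 on the log2 scale, it was 1.12 (0.763 to 1.72), above 1 in 6 of 9 libraries. Levels in CPM and log2 folds therefore differ by this shift. Only 9.74% of Hox UMI came from Hoxd, against 29.3% from Hoxa, 31.2% from Hoxb and 29.7% from Hoxc. Paralog group 9 stood at 192 CPM and group 13 at 20.2 CPM. Against fibroblast-like cells of the same library, edgeR called 16 of 38 members higher, where 39.7% of all genes were higher, and 8 lower, where 41.5% were lower. The median log2 fold was 0.54 over the members and -0.01 over all genes. By cluster, 6 Hoxa, 4 Hoxb, 5 Hoxc and 1 Hoxd genes were higher and 2 Hoxa and 6 Hoxd genes lower.

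Hoxb5 had the largest rise of the members called higher, 1.75 ± 0.22 (adjusted p = 1.43e-05), from 4.29 to 13.9 CPM (median 8.81) in fibroblast-like to 17.9 to 53.7 CPM (median 39.5) in neuron-like cells. The 2 ranges did not overlap. Hoxa7, which had the smallest p, rose by 1.47 ± 0.12 (2.38e-07), from 9.41 to 31.0 CPM (median 18.4) in fibroblast-like cells to 58.8 to 93.2 CPM (median 71.9), again with no overlap. Hoxc9 rose by 1.44 ± 0.19, from 10.99 to 28.7 CPM (median 18.8) to 44.6 to 101 CPM (median 69.7). Together with Hoxb7 (1.57 ± 0.16), Hoxa6 (1.52 ± 0.21), Hoxa4 (1.51 ± 0.19), Hoxb6 (1.20 ± 0.25) and Hoxa5 (1.18 ± 0.19), the 8 largest rises among the members called lay in paralog groups 4 to 9, which pattern the brachial and thoracic spinal cord in the embryo. Hoxc12, at 1.27 ± 0.56, did not pass the threshold (adjusted p = 0.0561).

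Of the 8 members called lower, 4 lay in paralog groups 11 to 13, 1 in groups 9 and 10, 1 in groups 5 to 8 and 2 in groups 1 to 4. Hoxd13 had 2.48 to 71.5 CPM (median 50.4) in fibroblast-like and 0.918 to 14.5 CPM (median 8.29) in neuron-like cells and fell by 2.70 ± 0.32 on the log2 scale (adjusted p = 8.39e-06). Its ranges overlapped between the classes because of the 2 low Per1-/- libraries, which were also the lowest in neuron-like cells, at 0.918 and 2.03 CPM. Hoxa13 fell by 1.75 ± 0.33 (0.000391) and Hoxd12 by 3.63 ± 0.36 (1.37e-06), and smaller falls were those of Hoxd8 (-1.08 ± 0.18), Hoxd11 (-0.78 ± 0.25) and Hoxd10 (-0.58 ± 0.23). Hoxd1 was called lower too, at 1.06 CPM pooled in fibroblast-like and 0.0368 CPM, from 4 UMI, in neuron-like cells.

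**Figure D4:**
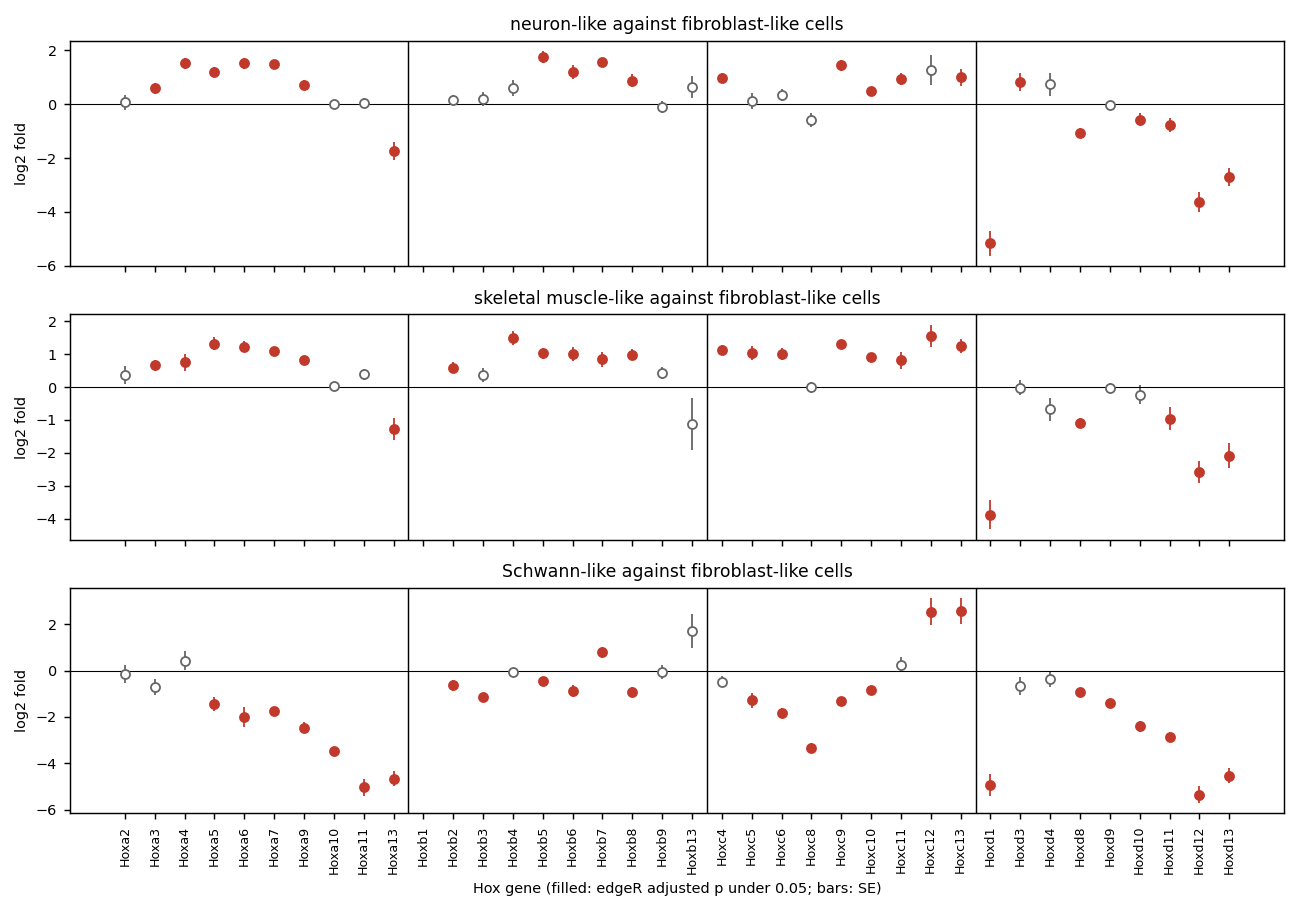
Log2 fold (vertical axis) of tested Hox genes (horizontal axis, in cluster order) against fibroblast-like cells in neuron-like (top), skeletal muscle-like (middle) and Schwann-like cells (bottom), with bars of 1 standard error over 9 libraries, filled markers for an adjusted p under 0.05 by edgeR and no point for Hoxb1, which was not tested. Hoxd12 and Hoxd13 lie below 0 in all 3 panels, at -3.63 and -2.70, -2.59 and -2.08, and -5.36 and -4.54.

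In neuron-like cells edgeR called no member between genotypes once genes of low counts were filtered out. Of 36 tested members it called none in Per1-/- against WT (0% of all genes; 8 members and 4.38% of all genes at an unadjusted p under 0.05), none in Per2-/- against WT (0.00692% of all genes; 21 members and 5.17% of all genes at an unadjusted p under 0.05) and none in Per1-/- against Per2-/- (0%; 16 members and 8.13% of all genes at an unadjusted p under 0.05). By DESeq2 the calls were none, 1 (Hoxb5) and 1 (Hoxa13), beside 0.0662%, 0.123% and 0.277% of all genes. Without the filter on low counts edgeR called 1, 11 and 8 of 39 members in the 3 comparisons, beside 0.525%, 0.739% and 1.37% of all genes. The smallest p-values were those of Hoxb13 (3.13 ± 0.80, adjusted p = 0.698), Hoxc9 (-0.38 ± 0.10, 0.701) and Hoxb9 (-0.995 ± 0.28, 0.818) for Per1-/- against WT, of Hoxb5 (-0.69 ± 0.12, 0.238), Hoxa10 (0.56 ± 0.12, 0.340) and Hoxb7 (-0.46 ± 0.10, 0.379) for Per2-/- against WT, and of Hoxb5 (0.57 ± 0.12, 0.267), Hoxb4 (0.62 ± 0.16, 0.338) and Hoxb2 (0.77 ± 0.23, 0.425) for Per1-/- against Per2-/-. Without the day 4 Per1-/- library, 2 members passed in Per1-/- against Per2-/-, Hoxd13 (-3.24) and Hoxa13 (-2.63), with 88, or 0.612%, of all genes. Here too the library left out was the Per1-/- library without the low Hoxd13 level, seen beforehand, so these calls are a description. Hoxb5 stood at 53.7, 49.3 and 37.6 CPM in WT, 48.7, 48.9 and 31.0 CPM in Per1-/- and 30.7, 39.5 and 17.9 CPM in Per2-/- neuron-like cells, lowest in Per2-/- on each of the 3 days.

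Hox genes that changed with time in neuron-like cells were mostly lower. On day 7 against day 4 none of the 36 members was called higher, where 9.77% of all genes were higher, and 5 were lower, where 8.16% were lower: Hoxa11 (-1.17 ± 0.20), Hoxa9 (-0.77 ± 0.09), Hoxb4 (-0.55 ± 0.15), Hoxa10 (-0.52 ± 0.11) and Hoxc9 (-0.38 ± 0.10). The count was 2 without the day 4 WT, the day 7 WT or the day 7 Per1-/- library and 8 without the day 10 Per2-/- library, when 1367, 1627, 1402 and 3100 of all genes were called in that order, against 2590 with every library. On day 10 against day 4, 2 members were higher, where 22.1% of all genes were higher, and 12 lower, where 19.9% were lower. Hoxa9 was at 57.0, 69.6 and 75.7 CPM in the day 4, 35.9, 38.3 and 46.5 CPM in the day 7 and 28.3, 26.0 and 31.0 CPM in the day 10 libraries of WT, Per1-/- and Per2-/- cells, so that the 3 days did not overlap. It fell by 1.19 ± 0.10 on the log2 scale from day 4 to day 10 (adjusted p = 8.92e-06).

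Of the other members that fell to day 10 in neuron-like cells, Hoxb9 (-1.28 ± 0.27), Hoxb4 (-1.01 ± 0.16), Hoxb3 (-0.88 ± 0.17), Hoxb8 (-0.68 ± 0.13), Hoxc9 (-0.64 ± 0.10), Hoxb5 (-0.60 ± 0.12) and Hoxa10 (-0.57 ± 0.12) had the smallest p-values, together with Hoxb13 (-4.38 ± 0.93), which was at 1.67 CPM or less in every library. Hoxd4 (4.28 ± 0.26), called higher, was counted differently on day 10, and the other was Hoxb7 at 0.32 ± 0.10. Of the 29 tested members outside the list of those counted differently, 1 was higher and 12 were lower. The makeup of the neuron-like class changed over the same days. Cluster 5, led by Igfbpl1, Lhx3 and Elavl3, held 94.3% of WT neuron-like cells on day 4 and 12.4% on day 10, and cluster 16, led by Snhg11, Scg3 and Stmn3, 2.84% and 61.6%. The remaining cluster of the class, 24, held 2.84% and 26.0%. Hoxa9 ranged from 33.7 to 78.9 CPM over the libraries in cluster 5, from 4.91 to 24.1 CPM in cluster 16 and from 40.9 to 95.1 CPM in cluster 24. Within cluster 16 it was higher on day 10 than on day 4 in all 3 genotypes, and within cluster 5 it was higher in WT (59.7 and 68.9 CPM, the latter from 30 cells) and lower in Per1-/- and Per2-/- cells. Within cluster 24 it was higher on day 10 in WT and Per2-/- and lower in Per1-/- cells. The part of the changed makeup in the falls with time was not tested.

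Skeletal muscle-like cells also had a higher Hox sum than fibroblast-like cells and a low Hoxd share. The 39 genes reached 808 CPM pooled (650 to 937 CPM per library, above the fibroblast-like sum in 9 of 9, by a median ratio of 1.46 on the plain and 1.21 on the TMM-scaled library sizes), with 8.46% from Hoxd and 35.3% from Hoxc, and the highest members were Hoxc6 (94.9 CPM), Hoxb9 (64.1) and Hoxc8 (63.9). Skeletal muscle of the trunk and limbs derives from somites, the segments of the body axis. Against fibroblast-like cells 20 members were higher, where 33.9% of all genes were higher, and 6 lower, where 37.9% were lower, with a median log2 fold of 0.62 over the members and -0.03 over all genes. The higher members were 6 Hoxa, 6 Hoxb and 8 of 9 Hoxc genes and no Hoxd gene.

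Hoxc9 rose by 1.31 ± 0.12 (adjusted p = 6.55e-07), from 10.99 to 28.7 CPM in fibroblast-like to 40.3 to 69.0 CPM (median 54.9) in skeletal muscle-like cells, with no overlap of the ranges. Hoxb4 rose by 1.48 ± 0.21, to 35.5 to 57.8 CPM from 5.07 to 18.2 CPM, and Hoxa5 (1.32 ± 0.20), Hoxa6 (1.23 ± 0.18), Hoxc4 (1.12 ± 0.16) and Hoxa7 (1.09 ± 0.12) rose as well. Hoxc12 (1.56 ± 0.34) and Hoxc13 (1.25 ± 0.23) were called higher at low levels, 0.921 CPM from 51 UMI and 1.21 CPM from 67 UMI. The 6 lower members were Hoxd12 (-2.59 ± 0.33), Hoxd13 (-2.08 ± 0.38), Hoxa13 (-1.28 ± 0.33), Hoxd8 (-1.09 ± 0.15), Hoxd11 (-0.97 ± 0.35) and Hoxd1 (0.09 CPM, from 5 UMI). Hoxd13 in this class ranged from 2.77 CPM in the day 7 Per1-/- library to 30.7 CPM in the day 10 Per2-/- library and was lowest in the same 2 Per1-/- libraries as in fibroblast-like cells.

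Schwann-like cells had the lowest Hox sum of these 3 classes. Schwann cells are the glia of peripheral nerves and derive from the neural crest. The 39 genes reached 249 CPM pooled (171 to 337 CPM), of which 45.5% came from Hoxb and 24.1% from paralog group 9, and the highest member was Hoxb9 at 39.8 CPM (21.6 to 73.8 CPM). Against fibroblast-like cells 3 members were higher, where 28.7% of all genes were higher, and 25 lower, where 39.5% were lower, with a median log2 fold of -1.03 over the members and -0.11 over all genes. The lower members were 8 Hoxa, 5 Hoxb, 5 Hoxc and 7 Hoxd genes.

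Hoxa10, at 26.3 to 50.5 CPM in fibroblast-like and 2.19 to 4.37 CPM (median 3.85) in Schwann-like cells, fell by 3.47 ± 0.13 on the log2 scale and had the smallest p (adjusted p = 2.23e-10). Hoxc8 fell by 3.34 ± 0.19, from 23.4 to 81.4 CPM to 2.91 to 11.9 CPM, and the ranges of both genes did not overlap between the classes. Hoxd13 (-4.54 ± 0.31, 72 UMI in Schwann-like cells), Hoxa13 (-4.66 ± 0.34, 32 UMI), Hoxa11 (-5.04 ± 0.36, 10 UMI), Hoxd12 (-5.36 ± 0.36, 6 UMI) and Hoxd11 (-2.85 ± 0.22) fell too, and Hoxd1 was at 2 UMI. The 3 higher members were Hoxb7 (0.80 ± 0.24), at 4.08 to 16.9 CPM in fibroblast-like and 9.37 to 37.7 CPM in Schwann-like cells, which overlap, Hoxc13 (2.58 ± 0.55) and Hoxc12 (2.54 ± 0.59). The last 2 stayed low, at 0 to 6.58 CPM and 0 to 2.19 CPM over the libraries, but each was above its fibroblast-like level of the same library in 8 of 9 libraries.

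In macrophage-like cells all 38 tested members were lower than in fibroblast-like cells, where 46.9% of all genes were lower and 37.7% higher, with a median log2 fold of -4.35 over the members and -0.16 over all genes. The largest falls were those of Hoxc8 (-5.24 ± 0.22), Hoxa11 (-5.22 ± 0.27), Hoxc6 (-5.07 ± 0.25), Hoxa13 (-5.03 ± 0.23), Hoxd4 (-4.82 ± 0.35), Hoxb9 (-4.79 ± 0.23) and Hoxd8 (-4.78 ± 0.23), beside Hoxd1.

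The most posterior paralog group with a UMI was then read in each cell after thinning to 5000 UMI. It was group 13 in 21.5% of fibroblast-like cells (1.85% to 35.0% per library), 7.50% of neuron-like, 7.82% of skeletal muscle-like and 2.38% of Schwann-like cells, against 0.768% of macrophage-like cells. It was group 9 in 15.97%, 27.8%, 26.1% and 16.9% of the same 4 classes and in 1.41% of macrophage-like cells. No Hox UMI was found in 18.1% of fibroblast-like, 12.01% of neuron-like, 10.0% of skeletal muscle-like, 39.6% of Schwann-like and 91.1% of macrophage-like cells. Over the cells pooled from all libraries, the shares of groups 9 and 13 lay above those of macrophage-like cells at the same depth in each of the 4 classes. The group 13 share of Schwann-like cells did not do so in every library. It was 2.70% against 3.27% in the day 4 WT library and 0% against 0.143% in the day 7 Per1-/- library. Without thinning, group 13 was the most posterior in 37.2% of fibroblast-like, 14.2% of neuron-like, 16.5% of skeletal muscle-like, 6.26% of Schwann-like and 2.95% of macrophage-like cells, so the shares depend on depth.

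**Figure D5:**
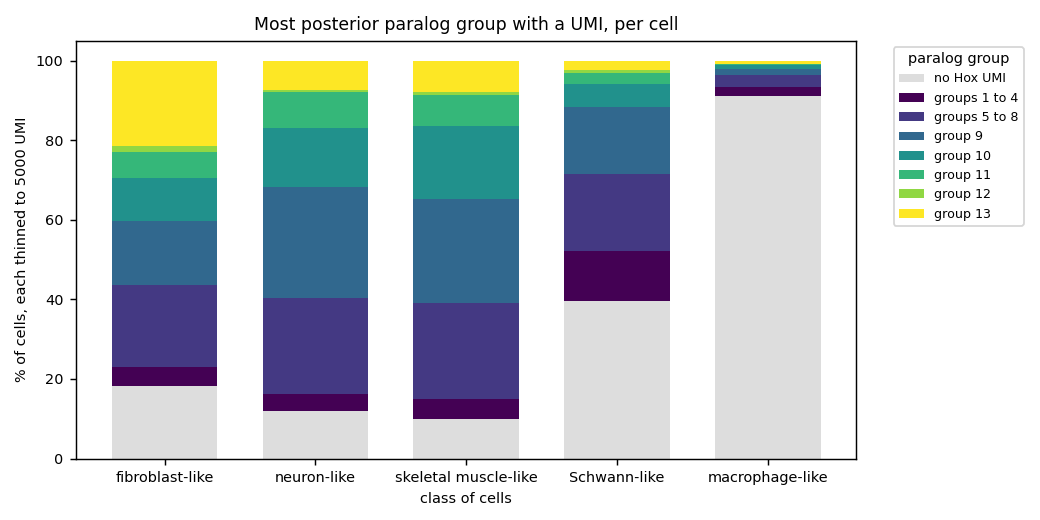
Share of cells (vertical axis, percent) by the most posterior Hox paralog group with a UMI after thinning to 5000 UMI per cell, for 5 cell classes, stacked to 100% over the cells of all 9 libraries. Group 13, at the top of each bar, takes 21.5% of fibroblast-like and 2.38% of Schwann-like cells, and 91.1% of macrophage-like cells have no Hox UMI.

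Partner and neighbour genes were followed in the same fits. TALE homeodomain proteins of the Meis, Pbx and Pknox families bind DNA together with Hox proteins, and in neuron-like against fibroblast-like cells 8 of 9 were higher and 1 lower, beside 39.7% and 41.5% of all genes, with Pbx4 at 2.89 ± 0.16, Pbx3 at 1.46 ± 0.25, Meis2 at 0.96 ± 0.14 and Pknox2 at -0.59 ± 0.19. In Schwann-like cells none was higher and 5 were lower, beside 28.7% and 39.5% of all genes, among them Meis1 (-1.93 ± 0.17), Pbx3 (-1.75 ± 0.11) and Meis2 (-1.63 ± 0.10), and in skeletal muscle-like cells 4 were higher, with Pknox2 at 1.51 ± 0.24 and Meis1 at 0.86 ± 0.15, and 4 lower, with Meis3 at -1.01 ± 0.16, beside 33.9% and 37.9% of all genes. In macrophage-like cells 1 was higher, Pbx2 (0.70 ± 0.07), and 6 lower, with Meis2 at -4.59 ± 0.21, beside 37.7% and 46.9% of all genes. Pbx3 fell in neuron-like cells by 1.25 ± 0.16 from day 4 to day 7 and by 1.98 ± 0.16 to day 10, when 5 of the 9 were lower and 1, Pbx4 (0.49 ± 0.09), higher, beside 19.9% and 22.1% of all genes. In fibroblast-like cells of day 10, Pknox2 (1.18 ± 0.18) was higher and Pbx4 (-0.62 ± 0.16) lower, beside 10.9% and 8.09% of all genes. The makeup of both classes changed over these days, as given above, and its part in these values was not tested.

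Of 10 noncoding RNAs of the Hox clusters, 7 were listed in all libraries. Hottip, transcribed beyond Hoxa13 at the posterior end of the Hoxa cluster, was lower in neuron-like (-2.80 ± 0.45) and skeletal muscle-like (-2.18 ± 0.44) cells and had no UMI in Schwann-like cells against 1519 UMI in fibroblast-like cells. Hoxb3os, antisense to Hoxb3, was higher in neuron-like (1.26 ± 0.17), Schwann-like (2.56 ± 0.23) and skeletal muscle-like (1.75 ± 0.14) cells; whether counting kept the strands apart is not given in the sources used here. In all, 2 of the 7 were higher and 3 lower in neuron-like, 2 and 3 in Schwann-like, 4 and 1 in skeletal muscle-like and 0 and 7 in macrophage-like cells. The shares of all genes were 39.7% and 41.5%, 28.7% and 39.5%, 33.9% and 37.9%, and 37.7% and 46.9% in the same order, so the counts in neuron-like and Schwann-like cells lay near those of all genes. Hoxaas3 (1.07 ± 0.23 in neuron-like and 1.65 ± 0.19 in skeletal muscle-like cells) and Hotair (1.31 ± 0.52 in Schwann-like and 1.22 ± 0.33 in skeletal muscle-like cells) were among the higher ones. On day 10 Hoxd3os1 (1.32 ± 0.36) and Hoxaas3 (1.13 ± 0.30) were higher in fibroblast-like cells, beside 10.9% of all genes. Whether the gene tables count these RNAs alike was not tested, nor was the part of the changed makeup of the class.

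Of 11 upstream regulators of Hox genes, among them Cdx genes and genes of retinoic acid signalling, 6 had enough UMI to be tested. In neuron-like cells 2 were higher, Gdf11 (1.47 ± 0.07), a growth factor of posterior patterning, and the retinoic acid receptor Rarb (0.75 ± 0.25), and 4 lower, the retinoic acid synthase Aldh1a2 (-3.24 ± 0.14), the receptors Rara (-2.99 ± 0.09) and Rarg (-2.81 ± 0.11) and the retinoic acid hydroxylase Cyp26b1 (-2.53 ± 0.58). In Schwann-like cells 1 was higher and 3 lower, in skeletal muscle-like cells 2 and 2, and in macrophage-like cells all 6 were lower. The shares of all genes in each class are those just given for the noncoding RNAs. On day 10 in fibroblast-like cells Aldh1a2 was higher (1.20 ± 0.27) and Cyp26b1 lower (-2.49 ± 0.61), beside 10.9% and 8.09% of all genes. Cyp26b1 was a leading gene of cluster 11, of which the day 4 Per2-/- library gave 62.1%, and the part of that cluster in this fall was not tested.

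Polycomb and trithorax proteins keep Hox genes silent or active. Of 20 such genes 12 were higher and 6 lower in neuron-like cells, with Kmt2a (1.22 ± 0.09) and Jarid2 (1.05 ± 0.07) against Eed (-0.83 ± 0.06) and Pcgf2 (-0.70 ± 0.04), 10 were higher and 5 lower in Schwann-like cells, led by Ezh2 (1.64 ± 0.09), 6 and 9 in skeletal muscle-like cells and 8 and 10 in macrophage-like cells. Of all genes, 39.7% and 41.5%, 28.7% and 39.5%, 33.9% and 37.9%, and 37.7% and 46.9% were higher and lower in these 4 classes. In neuron-like cells 2 of the 20 were higher and 10 lower on day 10 against day 4, beside 22.1% and 19.9% of all genes, led by Ezh2 (-1.61 ± 0.12). The part of the changed makeup of this class in these values was not tested. Of 31 genes of limb and axial position, 4 were higher and 18 lower in neuron-like cells, again beside 39.7% and 41.5% of all genes, with Isl1 at 2.82 ± 0.23 and Gli3 at -4.20 ± 0.11, Msx1 at -4.12 ± 0.31, Tbx4 at -3.19 ± 0.34 and Lhx2 at -2.85 ± 0.38. In Schwann-like cells 3 were higher and 25 lower, beside 28.7% and 39.5%, with Foxf1 at 2.03 ± 0.56 and Msx1 at -5.51 ± 0.25, in skeletal muscle-like cells 7 and 11, beside 33.9% and 37.9%, with Msx2 at 2.04 ± 0.28, Tbx3 at 1.72 ± 0.11 and Lhx2 at -3.05 ± 0.39, and in macrophage-like cells all 31 were lower, beside 46.9%. None of these genes was called between genotypes in fibroblast-like or neuron-like cells, beside 0% and at most 0.00692% of all genes.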

How the data were processed

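UMI counts per gene and barcode were deposited by the authors as 1 filtered 10x matrix per library, made from 10x 3′ v3.1 libraries on the mm10 assembly (positions and homeoboxes were read here from GENCODE M21); the matrix headers name Cell Ranger 4.0.0 for days 4 and 7 and 6.0.0 for day 10, and no counts were normalized before deposit. The identifiers shared by both gene tables were used. Following the study, a barcode needed 3000 UMI and a mitochondrial share no higher than 20%. Doublets, taken as the highest scoring barcodes at a rate of 0.8% per 1000 barcodes, were left out. Cells were clustered on 2000 variable genes, 30 components and 15 neighbours (scanpy 1.11.5, leidenalg 0.10.2, resolution 1) after leaving out the Hox genes and the other gene lists, and clusters were named from fixed marker lists. Clusters with markers of 2 classes, few markers or low UMI stayed unnamed.

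UMI were summed per library and class (20 cells or more) and tested with edgeR 4.0.16 (R 4.3.3), quasi-likelihood, with the library as a block for class comparisons and genotype plus day otherwise, adjusted by Benjamini-Hochberg over all genes tested, at 0.05. DESeq2 1.42.0 was an alternative. Scripts were tested on simulated data. The named genes were the 10 highest members, the highest of each paralog group, the members under 1 CPM, up to 8 called members per direction in class comparisons, all called members (the 10 with the smallest p where more than 10 were called, the 3 with the smallest p where none was) in genotype and day comparisons, and up to 5 called genes per direction of other lists; those shown per cell cluster are its 3 highest relative to the other clusters, and Tbx5, Tbx4 and Pitx1. Some genes that this rule names are not reported here. Members and lists were chosen with earlier results of these data known. Fit errors cover the spread between libraries, and counts of few UMI carry counting error besides.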

Additional observations from a re-analysis of the deposited data

Results flagged for a closer look

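Between day 4 and day 10, 3 Hoxb genes changed in opposite directions in 2 classes of cells, in all 3 genotypes each way. Hoxb3 changed by 1.15 on the log2 scale in fibroblast-like and by -0.88 in neuron-like cells, Hoxb5 by 0.88 and -0.60, and Hoxb6 by 1.27 and -0.57. In neuron-like cells of WT, Per1-/- and Per2-/- libraries, Hoxb5 stood at 53.7, 48.7 and 30.7 CPM on day 4 and at 37.6, 31.0 and 17.9 CPM on day 10, while in fibroblast-like cells it stood at 9.28, 5.41 and 4.29 CPM and at 13.9, 8.81 and 11.8 CPM. The difference between the classes was not tested. The makeup of both classes changed between these days, and its part in these values was not tested either. The fibroblast-like side depended on how that class was formed. With finer clusters the changes were 0.56, 0.47 and 0.95 and only that of Hoxb6 passed edgeR's threshold (adjusted p = 0.0825, 0.0557 and 0.0176), and without the limit on markers of other classes they were 0.29, 0.14 and 0.34, none passed (0.324, 0.611 and 0.189), and Hoxb5 was higher on day 10 in 2 of 3 genotypes.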

How the results depend on the processing

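The comparisons of classes kept their counts of called Hox genes within 1.5 times under the alternatives tried (other size factors, DESeq2, no filter on low counts, finer clusters, doublets kept, no day 10 libraries, no library block, each library left out), and no named result was reversed. Counts for genotypes and days were less stable. In fibroblast-like cells, Per1-/- against WT gave 2 with DESeq2 and 0 to 6 with 1 library left out, Per2-/- against WT 1 with DESeq2, Per1-/- against Per2-/- 0 to 6 with 1 left out, and day 7 against day 4 6 with DESeq2 and 0 to 6 with 1 left out. Day 10 against day 4 gave 24 with DESeq2 (23.6% of all genes), 6 with finer clusters, 5 without the limit on markers of other classes (an alternative chosen after seeing the data) and 4 to 22 with 1 left out. In neuron-like cells, Per1-/- against WT gave 1 without the filter on low counts, Per2-/- against WT 1 with DESeq2 and 11 without the filter, Per1-/- against Per2-/- 1 with DESeq2, 8 without the filter and 0 to 2 with 1 left out, and day 7 against day 4 10 without the filter (14.3% of all genes) and 2 to 8 with 1 left out. The cause of these changes was not tested, except that leaving out a library leaves fewer samples. With TMM-scaled library sizes (chosen after seeing the data) the median ratio of the Hox sum to that of fibroblast-like cells was 1.12 instead of 1.63 in neuron-like cells, 1.21 instead of 1.46 in skeletal muscle-like cells, 0.377 instead of 0.449 in Schwann-like cells and 0.0584 instead of 0.0490 in macrophage-like cells. The Hox level of macrophage-like cells (median over libraries 22.9 CPM) was 53.9 CPM with doublets kept. The median share with group 13 as the most posterior in fibroblast-like cells (23.7%) was 9.33% when 2 UMI were required and 40.8% without thinning, that with group 9 in neuron-like cells 14.7% with 2 UMI and 32.1% at 10000 UMI, and that of macrophage-like cells with no Hox UMI 99.7% with 2 UMI, 84.1% at 10000 UMI and 71.4% without thinning. Of 95 named gene results, 30 had a call lost or gained under some alternative. The labels number no replicates, so libraries were matched by the library itself between classes and by day between genotypes. Depth limits the members under 1 CPM most.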

Other observations

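Clusters of cells left unnamed differed in their Hox levels as well. Cluster 4 (5212 cells, led by Pcolce2, Mia, Msmp and Hapln1, with Comp and Epyc), of which the day 10 Per2-/- library gave 85.4%, had Hoxd13 at 131, Hoxd11 at 98.0 and Hoxa13 at 50.8 CPM and all Hoxb genes together at 5.60 CPM, close to the levels of the fibroblast-like clusters 2 and 3. It was not named fibroblast-like under the limit on markers of other classes. The cartilage markers had a mean log2 fold of 1.28 there, but only 1 of them was counted as raised. Cluster 7 (4968 cells, led by Col2a1, Foxd1 and Pax9) had Hoxc8 at 39.2, Hoxc6 at 28.3 and Hoxb3 at 28.2 CPM. Cluster 20 (978 cells, led by Pou3f1, Lhx1 and Wnt4) had the highest Hox sum of all 29 clusters, 1357 CPM, with Hoxc6 at 140 and Hoxa9 at 130 CPM.

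Astrocyte-like cells (999 in all, 19 to 216 per library) carried 3 posterior genes at levels that were highest in 1 library. In the day 7 Per2-/- library Hoxb13 stood at 47.9, Hoxc12 at 40.7 and Hoxc13 at 95.8 CPM over 140 cells, whereas in the day 7 WT library, with 127 cells, all 3 had no UMI, which allows up to 3 UMI in 2995657. In fibroblast-like cells of the 9 libraries these genes reached at most 1.01, 0.689 and 1.10 CPM, and in any library of the other classes at most 1.67 (neuron-like), 3.21 (skeletal muscle-like) and 6.58 CPM (Schwann-like). The other astrocyte-like sums ranged from 0 to 23.0 CPM for Hoxb13, 0 to 4.04 CPM for Hoxc12 and 0 to 7.28 CPM for Hoxc13. The upper ends of these ranges also lay above the highest values of the other classes. No test was run with 1 library per genotype and day.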
